A study of Mus musculus with 87 samples.

Results

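Transcripts of the cytochrome P450 families 1 to 4 were followed through liver regeneration in mouse. Members were the rows typed protein_coding in the deposited table whose symbol begins with Cyp1, Cyp2, Cyp3 or Cyp4 plus a subfamily letter, with the exception of Cyp1a2, Cyp2e1, Cyp4a10 and Cyp4a14, and whose level was above −1.5 on the log2 RPKM scale (mapped reads scaled to transcript length and to library size) in at least 1 library. Of 78 rows with such a name, 4 were excepted, 17 did not reach that level in any library and 57 were kept, among 15396 genes above the same level in the whole table. Family 1 gave 2 members, family 2 gave 35, family 3 gave 8 and family 4 gave 12. Members were thus chosen by their name and their log2 RPKM, and the family was picked with results of these data known. Just inside the threshold were Cyp4f39 (highest value −1.09), Cyp1b1 (−0.89) and Cyp2g1 (−0.56), and just outside were Cyp4f18 (−1.54), Cyp2s1 (−1.58) and Cyp2b13 (−1.71). The threshold was passed in every library by 42 members and in at most 10 libraries by 2, and a member that passed only where it was high had to differ between groups, so counts below are descriptions of the kept members. Cyp2d37-ps is named as a pseudogene although its row is typed protein_coding.

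The mice were male C57BL/6 animals, 12 to 14 weeks old according to the labels, kept on a light and dark cycle with food in the dark period only, and each library came from poly(A) RNA of the liver of 1 mouse. PH (partial hepatectomy, the removal of most of the liver, after which the remaining lobes grow back) or sham surgery was performed at ZT2, which is 2 h after lights on. Groups are named C (not operated), S (sham) and X (PH), with the hours or weeks (W) since surgery. Unoperated livers numbered 9 at C0 (ZT2), 3 at C4 (ZT6) and 2 at C4W, sham livers 6 at S1, 5 at S4, 3 at S10, 3 at S20 and 3 at S48, and PH livers 6 at X1, 3 at X4, 6 at X10, 6 at X20, 3 at X28, 6 at X36, 3 at X44, 5 at X48, 3 at X72, 3 at X1W and 2 at X4W. All groups share the strain, sex and feeding schedule, and none carries a transgene. PH and sham surgery were done under isoflurane, and the study also names a painkiller, so these agents cannot be told apart from surgery where operated mice are set against unoperated ones. Sham mice were analysed only up to 48 h, so later PH groups were set against unoperated mice and the effects of surgery and of resection cannot be told apart there. The work ran in 3 periods. C0 livers came from all 3, S10 and S20 from 1, X10 and X20 in equal parts from that period and another, and S48, X48, X72 and X1W from 1 shared period. S4 and X4 livers came from 2 periods, and only 3 of the labelled X4 livers were analysed. Which replicate numbers belong to a period is not given in the sources used here. Differences between periods therefore cannot be removed from comparisons with C0, with S10 and S20, or of X4 with S4.

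P450 enzymes are heme proteins of the endoplasmic reticulum that insert an oxygen atom into a substrate, with electrons passed from NADPH by P450 reductase (Por). Families 1 to 3 are best known for oxidizing drugs, toxicants and steroids, and family 4 for oxidizing fatty acids and eicosanoids. In liver they are made mainly by hepatocytes, many of them in the pericentral part of the lobule, and several mouse genes differ in level between the sexes under the control of the growth hormone pattern. Subfamilies lie in gene clusters, with 13 members on chromosome 19 (Cyp2c), 9 on chromosome 7, 9 on chromosome 15 (Cyp2d), 8 on chromosome 4, 8 on chromosome 5 (Cyp3a) and 7 on chromosome 17. Neighbours can be nearly identical. Over windows of 100 bases, 8 members share at least 20% of their transcript with another gene, and their values are uncertain because reads may have been split between copies. These are Cyp3a41a (90.8%) and Cyp3a41b (88.2%), which share most with each other, Cyp2c40 (44.1%), Cyp4a12b (36.2%), Cyp4a12a (35.8%), Cyp2c69 (33.6%), Cyp2c67 (23.7%) and Cyp4a32 (20.1%). No window was shared by 23 members. Cyp4v3 also overlaps Klkb1 on the same strand.

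Depth was estimated at 12.2 to 48.9 M reads a library (median 26.2 M), so that a 2 kb transcript at the threshold has 18.6 reads at the median depth. All 8 hepatocyte markers examined were present, with a summed level between 49617 and 59223 RPKM in C0, and all 6 pancreas acinar markers stayed under 0.5 RPKM in every library. Comparisons used limma on log2(RPKM + 0.25), and a gene was called at a Benjamini-Hochberg adjusted p below 0.05 over all 15396 genes tested and a log2 fold change beyond 0.5 in either direction. Fold changes are on that scale, which understates the change of low genes, and ± after a fold change is its SE. Since RNA came from whole liver, fewer cells that make a transcript and less of it per cell cannot be told apart.

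In resting C0 liver the P450 levels spanned a wide range. Cyp3a11, the main drug-oxidizing enzyme of its subfamily, was highest at 1701 ± 262 RPKM (SD, n = 9), which is 24.1% of the summed RPKM of the 57 members. It was followed by Cyp2d9, a testosterone 16-alpha-hydroxylase, at 560 ± 36.9 RPKM, Cyp2f2, a naphthalene-activating enzyme of periportal hepatocytes, at 526 ± 69.5 RPKM, and Cyp2d26 at 395 ± 43.1 RPKM. The libraries of Cyp2d9 and Cyp2f2 overlapped, those of Cyp2d9 and Cyp2d26 did not, with Cyp2d9 between 508 and 616, Cyp2f2 between 431 and 616 and Cyp2d26 between 339 and 466 RPKM. In all, 18 members averaged 100 RPKM or more, 17 between 10 and 100, 14 between 1 and 10, and 8 under 1. The highest 5 members (the fifth was Cyp2c29) held 50.4% of the sum.

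The summed level of the 57 members was near that of C0 at 1 h, lower from 4 h after either surgery, and higher again later. It averaged 7048 ± 697 RPKM (SD, n = 9) in C0, 3995 ± 340 in S10 (n = 3), 3442 ± 266 in X10 (n = 6), 5020 ± 344 in X48 (n = 5), 6362 ± 1142 in X72 (n = 3) and 7463 ± 573 in X1W (n = 3). Both 10 h groups lay entirely below C0, whose lowest library was at 5584, since the highest S10 library was at 4203 and the highest X10 library at 3705. The Cyp2c members, epoxygenases and hydroxylases of fatty acids and drugs, had a sum of 1897 ± 420 RPKM in C0 and 680 ± 143 in X10. Cyp3a11 was at 1701 ± 262 and 696 ± 103 in these groups, and the Cyp2d sum at 1501 ± 94.7 and 966 ± 129. Cyp3a11 took 9.13 to 11.1% of the sum in S20 and 38.8 to 43.9% in X72. C0 was taken at ZT2, S10 and X10 at ZT12 and S20 at ZT22. With no unoperated group given for ZT12 or ZT22, time of day and surgery cannot be told apart at 10 and 20 h. C4, at the ZT6 of S4 and X4, averaged 6478 ± 467 RPKM (n = 3).

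**Figure D1:**
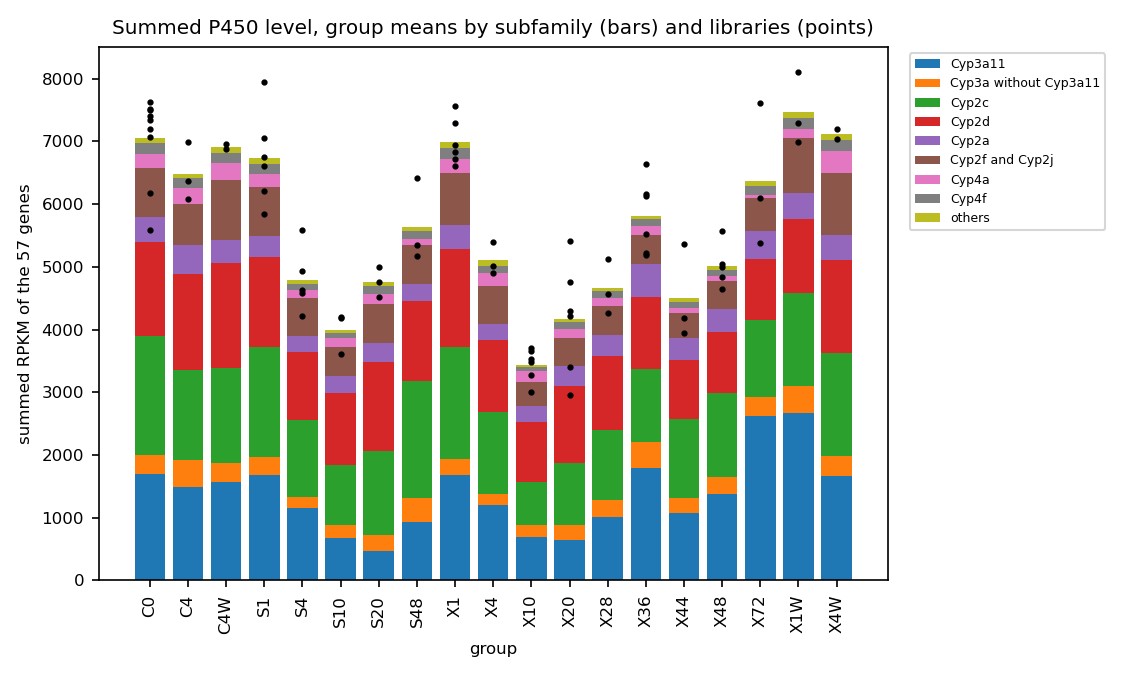
Summed RPKM (y axis) of the 57 P450 genes in each group (x axis), with bars stacked from group means by subfamily and points for single libraries. Group means were 7048 in C0 (ZT2), 3442 in X10 (ZT12, with no unoperated group at that ZT) and 7463 in X1W, with Cyp3a11 averaging 2671 RPKM in X1W.

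**Figure D2:**
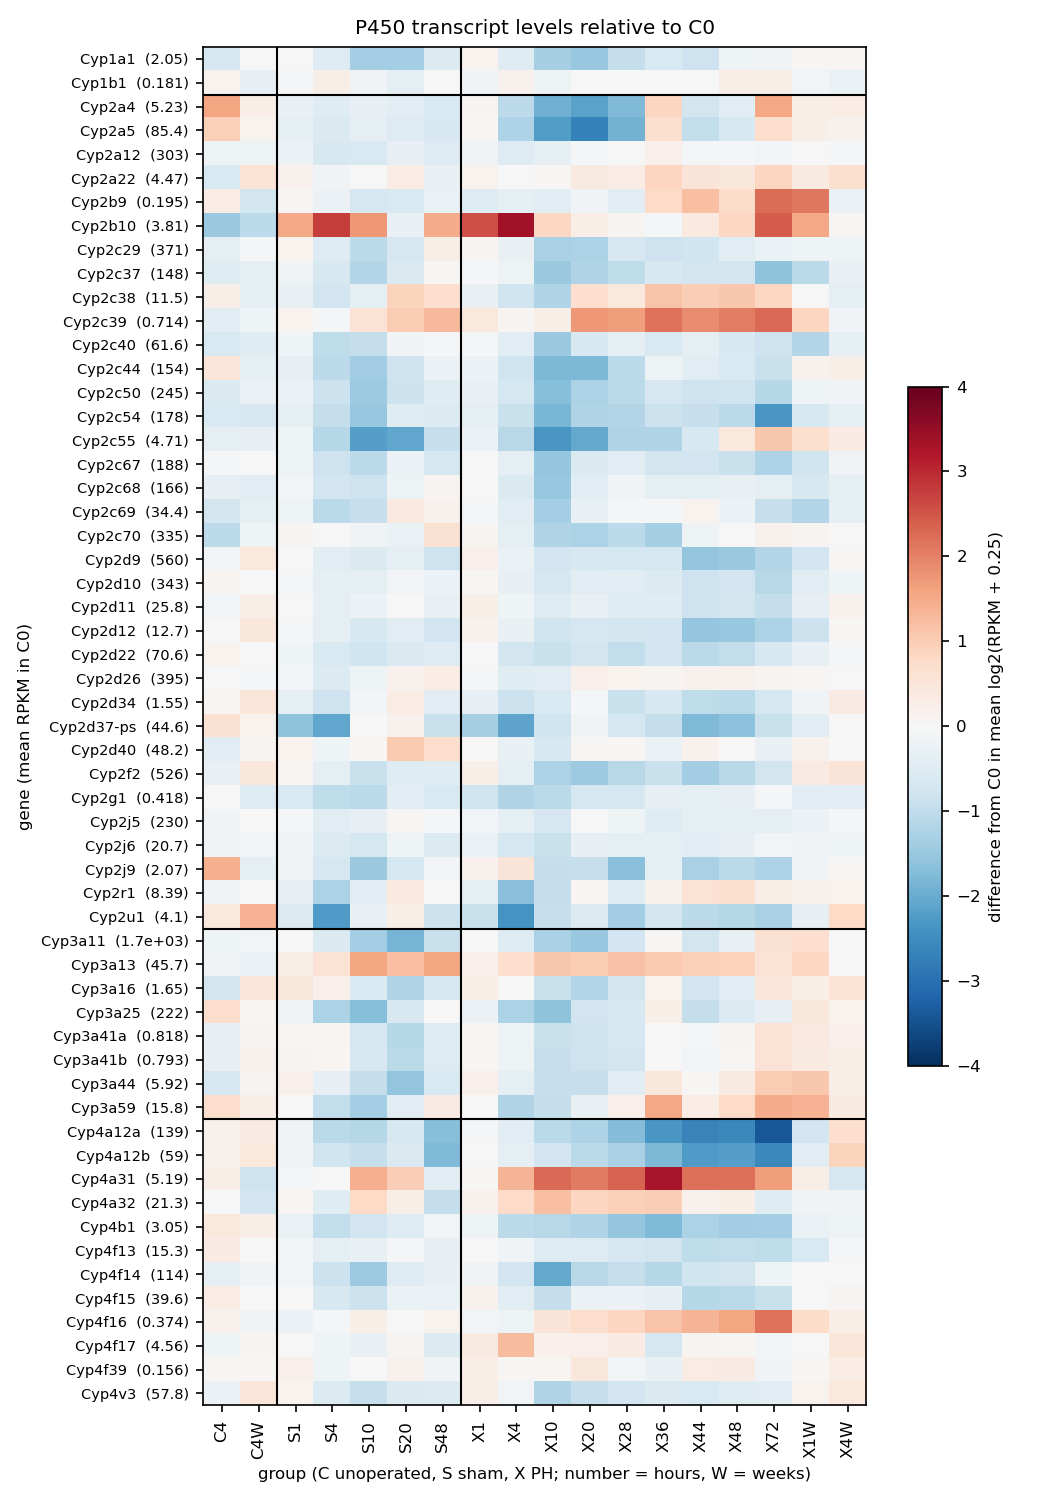
Difference of each group mean from C0 on the log2(RPKM + 0.25) scale (color) for the 57 genes (rows, with the mean RPKM in C0) in 18 groups (columns; C unoperated, S sham, X PH). Most rows are blue around 10 h in both surgeries, while Cyp4a31 and Cyp4f16 are red in the later PH groups and Cyp4a12a and Cyp4a12b are darkest blue from X36 to X72. Groups at other hours than C0 can also differ from it in time of day.

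The sham arm asks what the resection adds to the surgery. At 1 h no member was called between X1 and S1 by limma, 2 had an unadjusted p below 0.05, and 0.65% of all genes were called (0.624% higher and 0.026% lower). At 4 h, 4 members were called, all higher in X4, against 8.64% of all genes in either direction (3.16% higher and 5.48% lower). Cyp4f17, of a subfamily that hydroxylates fatty acids and leukotrienes, stood at 3.06, 4.37, 4.64, 4.38 and 3.78 RPKM in the S4 libraries and at 10.3, 11.2 and 12.6 in the X4 libraries. The PH livers all lay above the sham livers, and the log2 fold change was 1.44 ± 0.17 (adjusted p = 7.27e-09). C4 livers of the same ZT were at 3.57, 4.49 and 4.01 RPKM, within the sham range, and by X10 the PH livers were at 4.28 to 5.78 RPKM.

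Cyp4a31 and Cyp4a32, fatty acid omega-hydroxylases next to the PPAR-alpha target Cyp4a10, were also called at 4 h. Cyp4a10, excepted by the rule, is the gene that shares most with each, at 13.8% of Cyp4a32 and 2.87% of Cyp4a31. Their values may therefore include reads of Cyp4a10. Cyp4a31 was at 2.2, 3.42, 4.4, 5.57 and 17.7 RPKM in S4 and at 9.69, 12.8 and 18.3 in X4 (log2 fold change 1.33 ± 0.43, adjusted p = 0.0273). One sham liver reached the PH range, so the groups overlapped. Cyp4a32 changed by 1.26 ± 0.37 (adjusted p = 0.0137), with a sham liver at 36.9 RPKM between PH livers at 24.4, 37.8 and 44.1. Cyp2j9, of an epoxygenase subfamily, was at 0.686 to 1.71 RPKM in S4 and at 2.34 to 3.22 in X4 without overlap (1.18 ± 0.33, adjusted p = 0.00848). Without X4 replicate 5 only 1 member was called at 4 h, and 2 were called without S4 replicate 1 or without X4 replicate 6.

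Cyp2a4 and Cyp2a5 were lower after PH than after sham at both 10 and 20 h. Cyp2a5 is the coumarin 7-hydroxylase of mouse liver and Cyp2a4 a steroid 15-alpha-hydroxylase, and they lie on chromosome 7 at chr7:27620324-27628567 and chr7:27092209-27100107 (mm9, plus strand). Over windows of 100 bases, Cyp2a4 shares 11.3% of its transcript with Cyp2a5, which averaged 85.4 RPKM in C0 against 5.23 for Cyp2a4. Values of Cyp2a4 may therefore include reads of Cyp2a5, and its changes are no independent support. The 250 bases before the start site are 98.0% identical between the 2 genes, and are shown here because the pair moved together. The windows, from RefSeq on GRCm38.p6 (plus strand), are chr7:26306942-26307191 for Cyp2a4 and chr7:26835089-26835338 for Cyp2a5, and the capitals mark the D-box letters TTGCATAA, which begin at −70 and −71 from the start.
Cyp2a4: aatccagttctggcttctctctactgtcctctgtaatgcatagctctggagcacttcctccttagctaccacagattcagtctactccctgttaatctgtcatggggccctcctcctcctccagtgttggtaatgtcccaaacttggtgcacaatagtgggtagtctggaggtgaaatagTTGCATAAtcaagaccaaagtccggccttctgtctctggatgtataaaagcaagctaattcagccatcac
Cyp2a5: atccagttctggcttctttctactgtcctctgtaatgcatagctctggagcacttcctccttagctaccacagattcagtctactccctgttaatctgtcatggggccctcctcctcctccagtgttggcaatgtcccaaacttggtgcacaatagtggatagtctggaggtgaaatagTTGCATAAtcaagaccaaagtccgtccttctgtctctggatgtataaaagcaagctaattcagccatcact

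The D-box is bound by the clock-controlled factors Dbp, Tef and Hlf. It was searched on both strands after these sequences had been read, in windows from 250 bases before to 50 bases after the start. It was present in 4 of 50 promoters of members (8.0%; Cyp2a4, Cyp2a5, Cyp2b10 and Cyp4f14) and in 0.743% of 32851 promoters of all genes. The motif was picked from the Cyp2a pair, so the matches of that pair were fixed beforehand and these shares do not test enrichment. Of the members, 45 had at least 1 promoter in the table. Paralogs share their sequence, so such matches are not independent, and a match is not a site of binding.

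At 10 h, Cyp2a5 was at 80.3, 74.8 and 44.5 RPKM in S10 and at 17.1, 12.6, 25.6, 32.2, 8.5 and 18.4 in X10. Every PH liver was below every sham liver (log2 fold change −1.87 ± 0.46, adjusted p = 0.00331). Cyp2a4 was at 4.85, 4.99 and 2.64 RPKM in S10 and between 0.576 and 2.23 in X10 (−1.61 ± 0.46, adjusted p = 0.0123), again without overlap. At 20 h the difference was similar in size. Cyp2a5 was then at 44.4, 62.4 and 69.5 RPKM in S20 and at 11.3, 14.5, 19.8, 40.6, 7.72 and 3.88 in X20 (−2.17 ± 0.46, adjusted p = 0.00082), and Cyp2a4 changed by −1.70 ± 0.46 (adjusted p = 0.00809). The PH livers lay below the sham livers for both genes.

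In all, 5 members were called at 10 h, all lower in X10, where 7.02% of all genes were called (3.4% higher and 3.62% lower). The others were Cyp2c70, which makes muricholic bile acids (−1.05 ± 0.36), Cyp2d40 (−0.74 ± 0.18) and Cyp2r1, a vitamin D 25-hydroxylase (−0.51 ± 0.15). Without S10 replicate 1 or S10 replicate 2 the count was 2, and without X10 replicate 1 it was 3, and Cyp2a5 and Cyp2d40 were called in each of these fits. At 20 h, 6 members were lower and 1 higher, against 7.11% of all genes (4.49% higher and 2.61% lower). Cyp2d40 (−0.99 ± 0.18), Cyp2f2 (−0.95 ± 0.20), Cyp2c44 (−0.94 ± 0.27) and Cyp4b1 (−0.68 ± 0.22) fell with the Cyp2a pair, and Cyp4f16 rose (0.71 ± 0.18). Cyp2f2 was at 352 to 381 RPKM in S20 and at 90.7 to 305 in X20, with no overlap. The count was 4 without S20 replicate 2. With X20 replicates 1 to 3 alone 7 members were called, and with X20 replicates 4 to 6 alone 14. The change of Cyp2a5 was −1.95 and −2.39 in these sets and was called in both. For X10 the same sets gave 6 and 3 members, with Cyp2a5 at −1.85 and −1.89 and called in both, and Cyp2a4 called in the first set only.

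**Figure D3:**
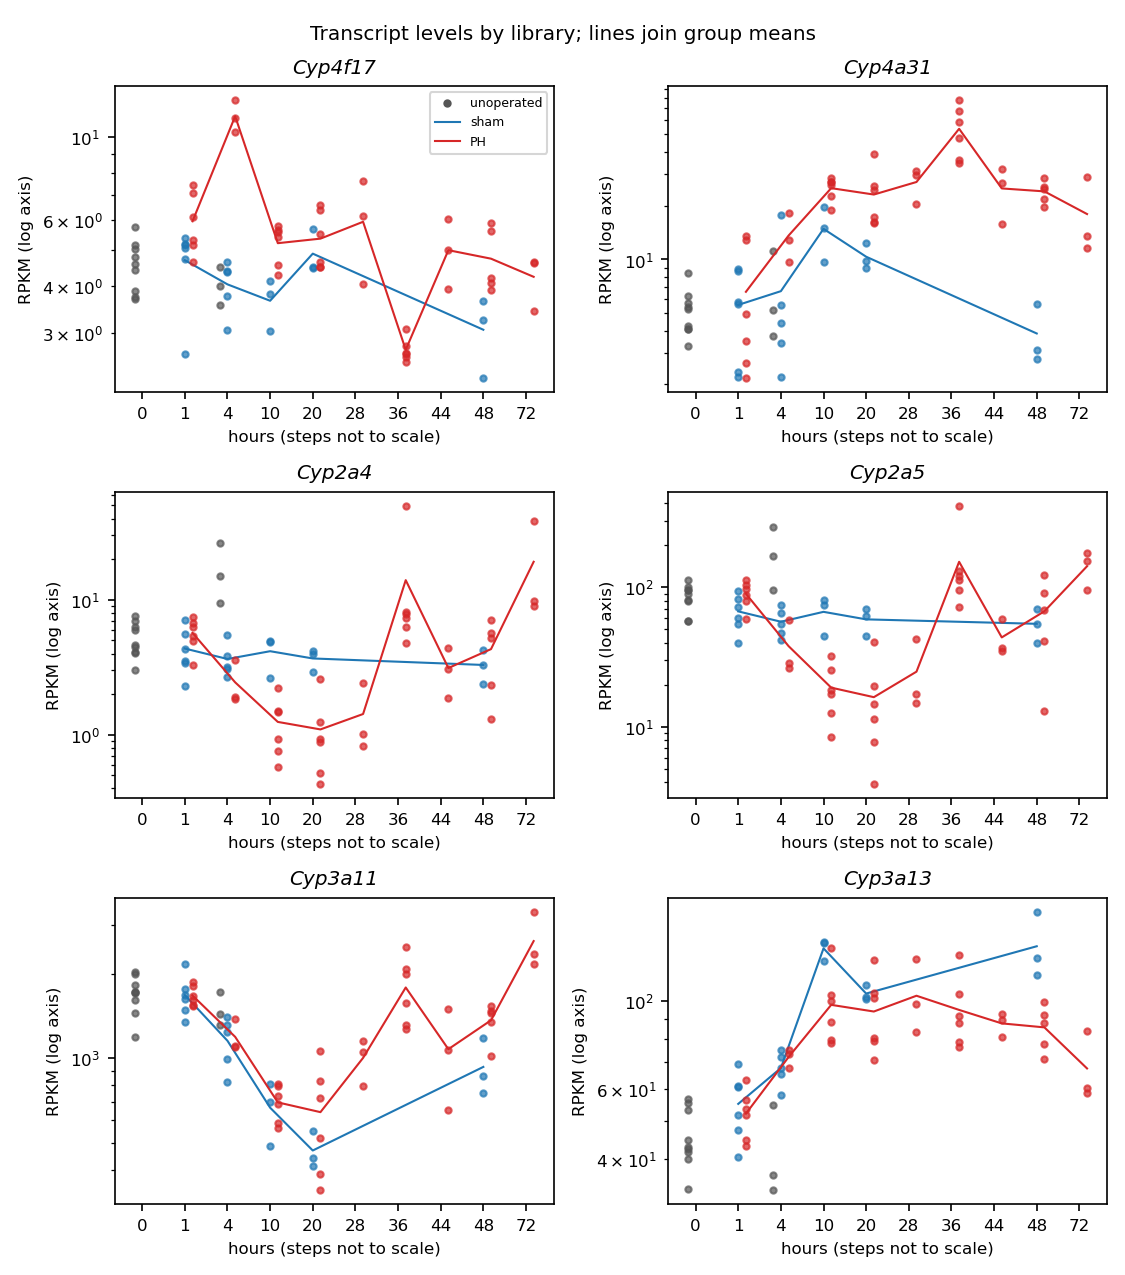
RPKM on a log axis of 6 P450 genes in single livers (points) against hours since surgery (steps not to scale), with lines joining group means of sham (blue) and PH (red) and unoperated livers in grey. Cyp2a4 and Cyp2a5 are lower after PH at 10 and 20 h, Cyp4f17 peaks at 4 h after PH, and Cyp3a11 falls in both arms to 20 h, with time of day differing between the hours.

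The Cyp2a pair then rose in PH livers, although there is no sham group at 36 h. Cyp2a5 stood at 71.6 to 382 RPKM in X36 (ZT14), where X36 replicate 2 held 382 and the other 5 livers, at up to 131, overlapped C0 in part, and Cyp2a4 at 4.76 to 49.6. Unoperated C4 livers at ZT6 held 268, 95.9 and 167 RPKM of Cyp2a5, all but one above the C0 range of 57.5 to 113. The change in the difference between PH and sham from 20 to 48 h was tested in the same model. It was called for 5 members, against 13.2% of all genes (12.5% higher and 0.65% lower). Cyp2a5 (2.16 ± 0.66, adjusted p = 0.0162), Cyp2a4 (1.89 ± 0.65), Cyp2r1 (0.97 ± 0.22) and Cyp4f16 (0.74 ± 0.26) were higher relative to sham at 48 h than at 20 h, and Cyp4f15 lower (−0.82 ± 0.22). After shifting all libraries to a common median, 1 was higher (Cyp2r1) and 8 lower. The share of all genes called after this shift was not counted. The Cyp2a pair kept its sign but not its call (Cyp2a5 1.76, limma adjusted p = 0.0621, and Cyp2a4 with adjusted p = 0.109). This shift uses the medians of the libraries, and it moved Cyp2a5 by more than the median change of all genes for this contrast, which was 0.21. Leaving out 1 liver at a time gave 2 to 5 members, with 2 without S48 replicate 2 and 3 without S20 replicate 2, S20 replicate 3, S48 replicate 1, X20 replicate 5, X48 replicate 3 or X48 replicate 4.

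At 48 h, when both groups are again at ZT2, 23 of 57 members were called (40.4%), 11 higher and 12 lower after PH. Of all genes 27.2% were called, 24.5% higher and 2.69% lower, and their median change was 0.27, while that of the members was −0.31. After shifting all libraries to a common median (called scaling here), 30 members were called, 2 higher (Cyp4a31 and Cyp4f16) and 28 lower, so the split depends on the scaling. Scaling lowered changes at this hour by more than the median change of all genes, which adds to the count of lower members. The share of all genes called after scaling was not counted, here or in the later comparisons. Counts after scaling therefore do not set the members apart. The libraries of 17 of the 23 did not overlap, but the same count was not made over all genes, so it does not set the members apart.

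Among the higher members, family 4 led. Cyp4a31 was at 2.79, 3.11 and 5.67 RPKM in S48 and at 21.7, 25.4, 28.5, 19.7 and 24.9 in X48, a log2 fold change of 2.62 ± 0.43 (adjusted p = 1.06e-06) and the largest among the members. Cyp4a32 was at 13.4, 6.7 and 12 RPKM in S48 and at 15.8, 32.9, 35.1, 22.4 and 21.5 in X48 (1.23 ± 0.37, adjusted p = 0.00512). For both, all PH livers were above all sham livers. Cyp4f16 was at 0.385, 0.463 and 0.438 RPKM in S48 and at 1.41, 1.42, 1.6, 1.98 and 1.62 in X48 (1.44 ± 0.19, adjusted p = 1.79e-09), a low but fully separated level. For Cyp4a32 the X48 livers lay within the C0 range of 13.6 to 40.9 RPKM and the S48 livers below it. Cyp4f17 was at 3.66, 2.27 and 3.25 RPKM in S48 and at 3.92 to 5.89 in X48 (0.60 ± 0.17), and its scaled change was 0.13. Both PPAR-alpha-linked members (Cyp4a31 and Cyp4a32) were thus higher than in sham livers at 4 and 48 h, and as at 4 h their values may include reads of Cyp4a10. Ppara was not called in any comparison of PH with sham. It was called higher in X28 against C4 (1.25 ± 0.36) and in X1W against C0 (0.79 ± 0.29). Whether Ppara bears on these genes was not tested.

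In families 2 and 3 the members called higher were Cyp2c55, Cyp2c39, Cyp2a22, Cyp2r1, Cyp3a44, Cyp3a41a and Cyp3a11. Cyp2r1 was at 8.22, 7.9 and 8.77 RPKM in S48 and at 12, 13.8, 14, 13.7 and 12.5 in X48 (0.65 ± 0.16, adjusted p = 0.000626), with narrow groups that did not overlap. Cyp3a44 was at 4.62, 2.98 and 3.45 RPKM in S48 and at 13, 6.31, 5.57, 6.43 and 7.21 in X48 (0.97 ± 0.26, adjusted p = 0.0016). Cyp2c39, known for retinoic acid hydroxylation, was at 1.85, 1.63 and 2.14 RPKM in S48 and at 5.14, 3.14, 3.07, 2.73 and 2.94 in X48 (0.76 ± 0.30). X48 replicate 1 was the highest of the 5 for both. Cyp2c55 was at 2.79, 1.77 and 2.38 RPKM in S48 and at 2.61, 7.81, 6.08, 11.4 and 6.16 in X48 (1.34 ± 0.48), and Cyp2a22 at 3.76, 2.62 and 3.6 against 6.34, 3.36, 6.07, 7.01 and 6.5 (0.75 ± 0.28), each with 1 PH liver inside the sham range. Cyp3a11 was at 1181, 751 and 865 RPKM in S48 and at 1352, 1536, 1022, 1456 and 1477 in X48 (0.57 ± 0.23, adjusted p = 0.043), was called in only 2 of the 8 fits that left out 1 liver, and changed by 0.07 after scaling. None of these 7 was called after scaling.

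The 12 lower members kept their direction after scaling, but scaling lowered the changes at this hour, so that outcome was fixed beforehand. Cyp2d enzymes, the counterparts of human CYP2D6, gave 5 of them. Cyp2d9 was at 454, 244 and 290 RPKM in S48 and at 111, 248, 241, 216 and 217 in X48 (−0.68 ± 0.21, adjusted p = 0.00688), with 1 PH liver inside the sham range. Cyp2d12 was at 10.6, 5.68 and 6.4 RPKM against 2.36, 5.72, 4.75, 4.46 and 5 (−0.73 ± 0.22), overlapping likewise, and Cyp2d40 at 87, 79.6 and 68.3 against 61.8, 47.9, 60, 36.8 and 38.6 (−0.70 ± 0.19), without overlap. Cyp2d10 and Cyp2d34 changed by −0.54 ± 0.11 and −0.63 ± 0.22. X48 replicate 1 was the lowest for Cyp2d9 and Cyp2d12.

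Cyp4b1, which activates furans and aromatic amines, had the largest fall, from 2.97, 2.8 and 2.45 RPKM in S48 to 0.973, 0.88, 0.673, 0.893 and 1.52 in X48 (−1.30 ± 0.23, adjusted p = 3.04e-06). Cyp4f15 went from 34.5, 31.7 and 30.9 RPKM to 19.1, 18.7, 21, 16.9 and 16.3 (−0.81 ± 0.16, adjusted p = 2.09e-05), and Cyp4f13 from 13.1, 12.7 and 11 to 7.64, 7.38, 8.17, 6.86 and 7.66 (−0.68 ± 0.10, adjusted p = 9.9e-08). None of these groups overlapped, so within the Cyp4f subfamily 2 members were lower and 2 higher at 48 h. Cyp2j9 was at 1.52, 2.24 and 1.28 RPKM in S48 and at 0.787, 0.92, 0.65, 0.703 and 0.584 in X48 (−0.96 ± 0.33). It had been higher in PH livers at 4 h.

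Cyp2c37 was at 151, 150 and 147 RPKM in S48 and at 67.5, 90.7, 139, 74.1 and 79.4 in X48 (−0.77 ± 0.29, adjusted p = 0.0245), all below the sham livers, and was called in only 3 of the 8 fits that left out 1 liver. Cyp2f2 was at 504, 297 and 352 RPKM in S48 and at 214, 289, 186, 288 and 238 in X48 (−0.65 ± 0.20, adjusted p = 0.00679), and without S48 replicate 1 the adjusted p was 0.133. Cyp3a13 was at 128, 167 and 116 RPKM in S48 and at 88.1, 91.9, 99, 78 and 71.5 in X48 (−0.67 ± 0.17, adjusted p = 0.00119). Both operated groups lay above C0, which held 33.7 to 56.7 RPKM.

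**Figure D4:**
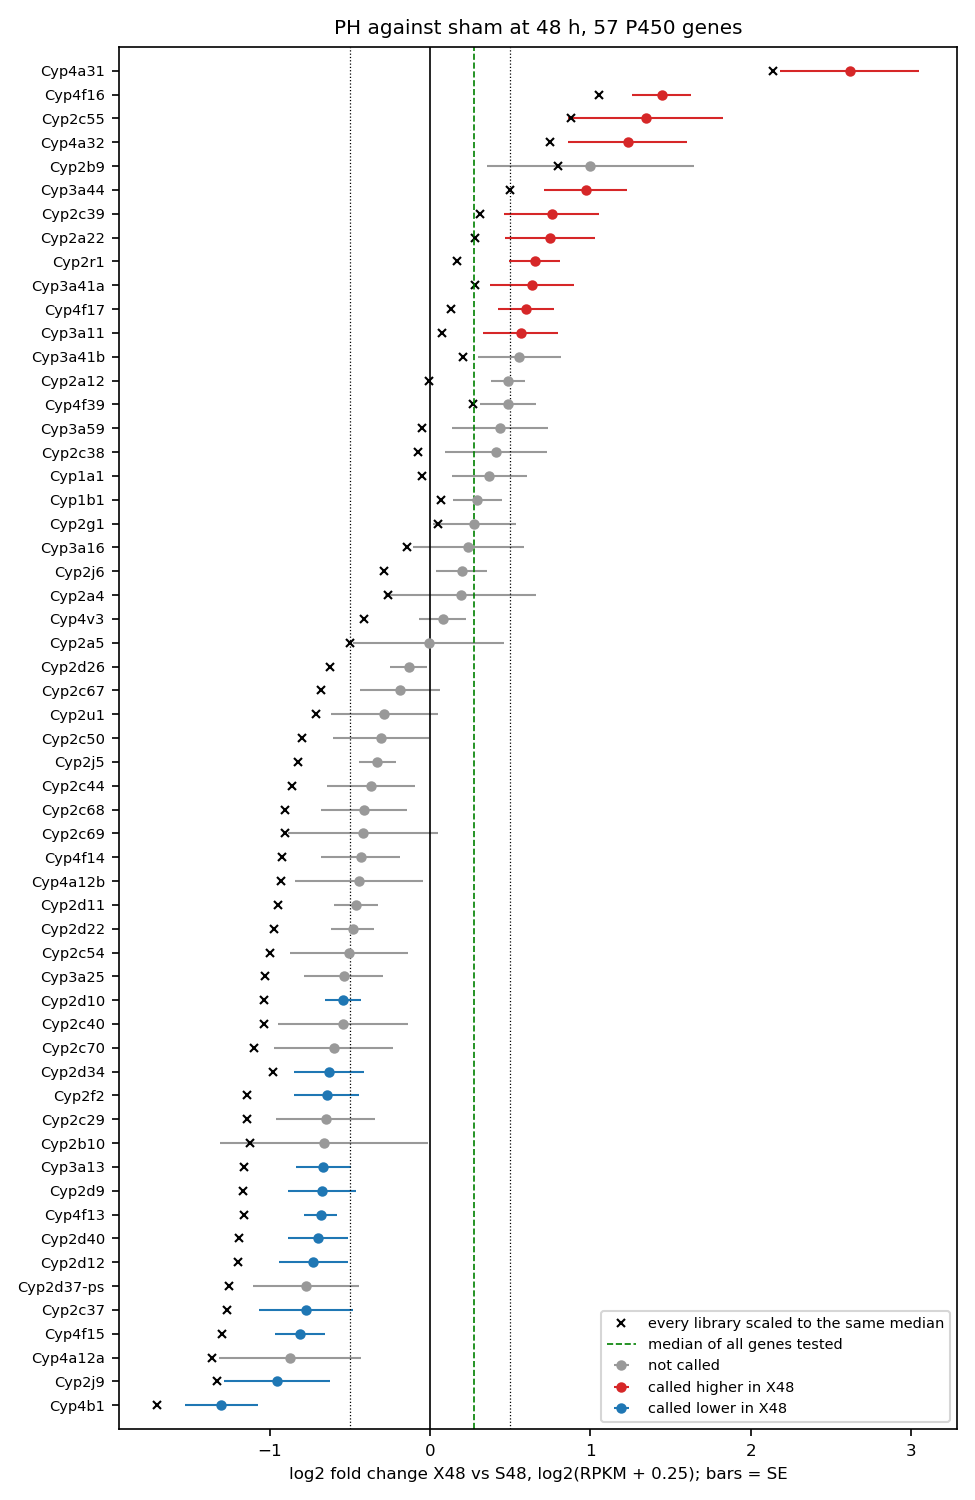
Log2 fold change of X48 against S48 with its SE (x axis) for the 57 genes (y axis), with called members in red or blue, the value after scaling as a cross and the median of all genes as a dashed line. Cyp4a31 is at 2.62 and Cyp4b1 at −1.30, and 28 members were called lower after scaling, where the share of all genes was not counted.

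Comparisons with C0 livers, at the same ZT2 for 48 and 72 h and with no ZT given in the labels for 1 week, show what each surgery left. They share the C0 livers, so they are not independent of each other, and values over sets of C0 replicates (1 to 3, 4 to 6 and 7 to 9) are given for the sex-predominant genes and Cyp3a11. In S48, 17 members were called, 3 higher and 14 lower, against 8.88% of all genes (3.83% higher and 5.05% lower). Cyp3a13 rose most, by 1.58 ± 0.16 (adjusted p = 5.31e-12), and Cyp2c39 and Cyp2d40 rose by 1.29 ± 0.27 and 0.72 ± 0.17. Cyp4a12b, Cyp4a12a, Cyp3a11 and Cyp2d9 were among those that fell, and the counts were 7 without S48 replicate 2 and 11 without S48 replicate 3.

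At X72, 35 members were called (61.4%), 15 higher and 20 lower, against 33.2% of all genes, 26.6% higher and 6.59% lower. The median change of all genes was 0.21 and that of the members −0.27. After scaling to the same median, 39 were called, 8 higher and 31 lower. The libraries did not overlap for 26 of the called members, a count likewise not made over all genes. At X1W, 8 members were higher and 8 lower, against 16.9% of all genes (12.4% higher and 4.48% lower), with 6 higher and 12 lower after scaling and 9 in all without X1W replicate 3.

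The male-predominant members (Cyp4a12a, Cyp4a12b and Cyp2d9) were lower in S48, X28 and X72, all 3 of them in each case against the unoperated livers of the same ZT. Of all genes, 5.05%, 18.3% and 6.59% were called lower in these comparisons. In X28 the call of Cyp2d9 (−0.62 ± 0.24) was made in only 2 of 6 fits that left out 1 liver. Cyp4a12a, an arachidonic acid 20-hydroxylase, lies at chr4:114971651-115005420 and its near copy Cyp4a12b at chr4:115084229-115111639 (mm9, plus strand). The level of Cyp4a12a in C0 was 88.6 to 241 RPKM with a median of 128. It was 99.4, 35.5 and 19.2 in S48, 9.2, 17.6, 41.6, 27.8 and 28.3 in X48, 12.8, 21.3 and 7.16 in X72 and 58.8, 112 and 71.9 in X1W. All PH livers at 48 and 72 h were thus below all C0 livers, 1 sham liver at 48 h was within the C0 range, and by 1 week the ranges overlapped. The log2 fold change was −3.39 ± 0.40 in X72 (adjusted p = 1.52e-10) and −1.71 ± 0.40 in S48 (adjusted p = 0.00192), the latter called with 2 of the 3 sets of C0 replicates.

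Cyp4a12b followed the same course, with 45.9 to 86.3 RPKM in C0, 45.6, 10.5 and 9.93 in S48 and 10.9, 12.5 and 6.52 in X72 (−2.56 ± 0.37, adjusted p = 2.19e-08). The pair shares reads over part of its length, so the similarity of their values is no independent support. Between X48 and S48 neither was called. Cyp2d9 was at 508 to 616 RPKM in C0, 230, 273 and 242 in X72 (−1.17 ± 0.19, adjusted p = 6.05e-07) and 301, 448 and 263 in X1W (−0.77 ± 0.19, adjusted p = 0.0014). It remained below every C0 liver at both times. At 4 weeks Cyp4a12a was at 203 and 224 RPKM in X4W and at 174 and 161 in C4W.

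The female-predominant list holds 11 genes, of which Cyp2b13 was not kept. At X72, 7 of the other 10 were higher than in C0 and none lower (median change 0.80 against 0.21 for all genes), where 26.6% of all genes were called higher. With the 3 sets of C0 replicates taken one at a time, Cyp2c39 was called with each set, Cyp3a44 (0.64 to 1.57), Cyp2a4 (1.10 to 1.92), Cyp2b9 (1.75 to 2.57) and Cyp2b10 with 2 sets, and Cyp3a41a (0.20 to 1.08) and Cyp3a41b (0.17 to 1.12) with 1. Cyp2c39 was at 0.179 to 1.48 RPKM in C0 and at 3.94, 3.05 and 4.94 in X72 (2.27 ± 0.27, adjusted p = 1.82e-10), Cyp3a44 at 3.07 to 8.22 against 9.19, 10.2 and 16.9 (1.01 ± 0.24, adjusted p = 0.000246), and Cyp2a4 at 3.02 to 7.62 against 9.84, 9.06 and 38.5 (1.54 ± 0.43). The X72 livers were above all C0 livers for these genes, with X72 replicate 3 the highest in each. Values of Cyp2a4 may include reads of Cyp2a5, as stated above. Cyp2b9 was at 0.0232 to 0.695 RPKM in C0 and at 0.0626, 1.34 and 14.6 in X72 (2.23 ± 0.59), so 1 liver carried most of its mean.

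Cyp2b10, the classical target of the receptor CAR, depended on the C0 livers chosen. It was at 7.65, 7.59 and 13.7 RPKM in C0 replicates 4 to 6 and at 0.452 to 1.54 in the other 6, and at 11.3, 8.04 and 18.5 in X72 (2.44 ± 0.59, adjusted p = 0.00042, with 0.36 to 3.71 over the 3 sets of C0 replicates). At X1W its change was 1.55 ± 0.59 and ran from −0.53 to 2.83 over these sets. Cyp3a41a and Cyp3a41b (both 0.58 ± 0.24) complete the 7, and these 2 near copies were not called after scaling, while the other 5 were. At X1W, 4 of the 10 were higher (Cyp2b9, Cyp2b10, Cyp2c39 and Cyp3a44) and 2 lower (Cyp2c40 and Cyp2c69), against 12.4% and 4.48% of all genes. Each of these member calls was made with 2 of the 3 sets of C0 replicates. C0 itself ranged from 21.3 to 125 RPKM for Cyp2c40.

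**Figure D5:**
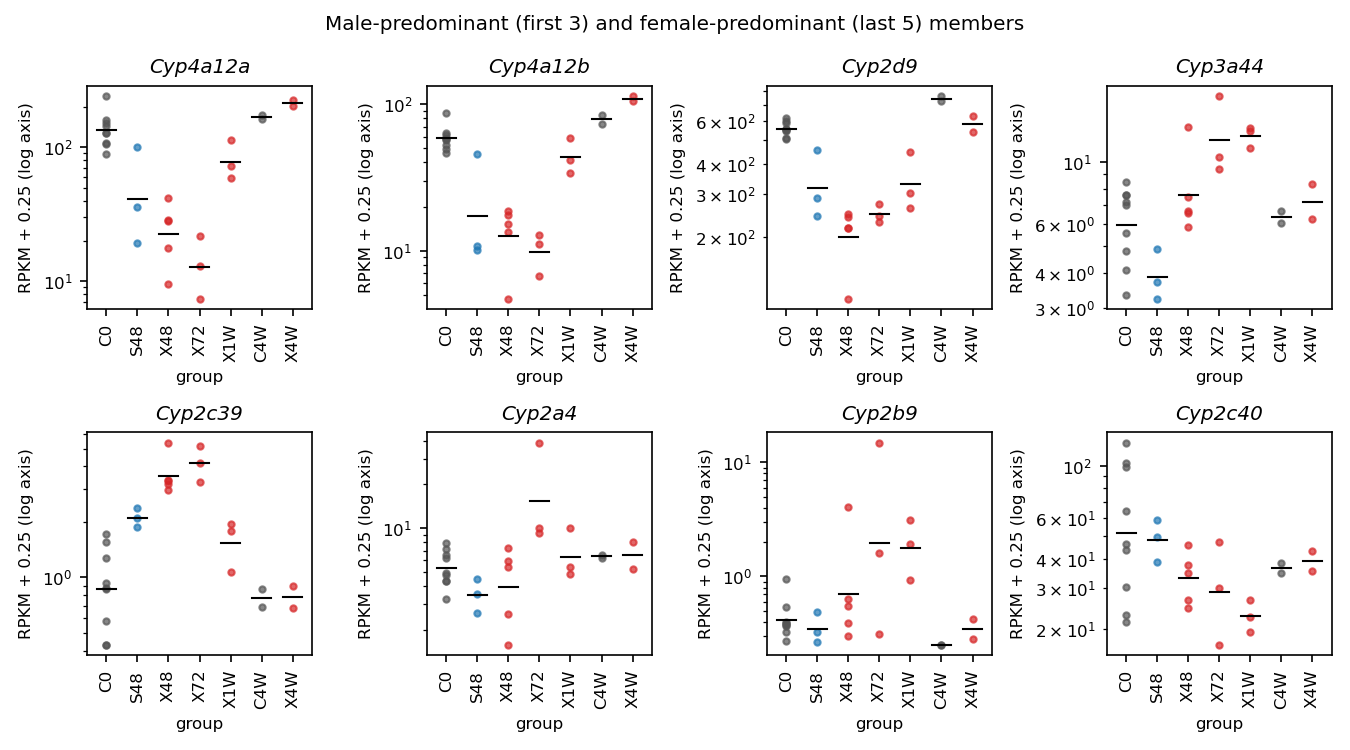
RPKM + 0.25 on a log axis of 3 male-predominant and 5 female-predominant P450 genes in single livers (points) and as geometric group means (short bars) in groups at ZT2 and at 1 and 4 weeks. Cyp4a12a falls to 7.16 to 21.3 RPKM in X72 and is at 203 and 224 in X4W, while the group means of Cyp3a44 and Cyp2c39 are highest in X1W or X72.

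Promoters of the female-predominant Cyp3a41a and Cyp3a44 are shown because both genes were called higher in X48 and X72, although at X1W only Cyp3a44 was called and after scaling neither was called in X48 and only Cyp3a44 in X72. The 250 bases before the start, from RefSeq on GRCm38.p6 (minus strand), are chr5:145720137-145720386 for Cyp3a41a and chr5:145805875-145806124 for Cyp3a44, and are 94.4% identical. Capitals mark the letters ATCAAT, the core bound by HNF6 (Onecut1), which begin at −71 in both.
Cyp3a41a: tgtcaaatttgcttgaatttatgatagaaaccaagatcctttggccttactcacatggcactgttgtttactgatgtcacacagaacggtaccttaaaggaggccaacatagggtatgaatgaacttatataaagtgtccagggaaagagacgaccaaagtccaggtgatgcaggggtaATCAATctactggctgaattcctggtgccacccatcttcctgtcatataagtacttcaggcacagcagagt
Cyp3a44: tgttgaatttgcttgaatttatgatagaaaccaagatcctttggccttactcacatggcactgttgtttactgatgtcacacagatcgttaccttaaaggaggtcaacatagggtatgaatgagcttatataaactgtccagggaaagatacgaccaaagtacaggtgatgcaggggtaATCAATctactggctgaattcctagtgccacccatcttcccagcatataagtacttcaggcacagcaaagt

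In windows from 250 bases before to 50 after the start and on both strands, ATCAAT was present in 12 of 50 promoters of members (24%) and in 7.54% of all promoters. The 12 include 6 Cyp2c and 4 Cyp3a promoters, which share sequence by descent. TTCNNNGAA, the STAT5 motif, was present in 2 of 50 (4.0%) and in 8.30% of all, AGGTCA, a nuclear receptor element, in 14 (28.0%) and 16.3%, and GCGTG, the AhR core, in 10 (20.0%) and 32.4%. Transcripts of Onecut1 were higher in X72 than in C0 by 1.79 ± 0.52 (limma adjusted p = 0.00313). Its change was −0.50 ± 0.57 in X48 against S48 and 0.49 ± 0.52 in X1W against C0, and neither was called. Whether Onecut1 bears on these genes was not tested.

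Cyp3a11 and the other CAR and PXR targets (6 members) gave 4 higher and 1 lower in X72, where 26.6% of all genes were higher and 6.59% lower. Cyp3a11 was at 1196 to 2034 RPKM in C0, 2178, 2365 and 3341 in X72 (0.62 ± 0.21, adjusted p = 0.0125) and 2373, 2935 and 2705 in X1W (0.66 ± 0.21, adjusted p = 0.0126). All livers of both groups were above the C0 range, although neither call remained after scaling and both were made with 2 of the 3 sets of C0 replicates. In sham livers Cyp3a11 averaged 468 ± 74.0 RPKM at S20 (n = 3), taken at ZT22, for which no unoperated group is given. The lower member was Cyp2c37, at 92.9 to 192 RPKM in C0, 28.9, 48.2 and 74.3 in X72 (−1.61 ± 0.27, adjusted p = 6.47e-07) and 64.8, 74.9 and 65.3 in X1W (−1.07 ± 0.27), below all C0 livers at both times. Neither AhR target (Cyp1a1, Cyp1b1) was called in any of the 12 comparisons.

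Of the 6 pericentral members, 3 were lower in X72 (Cyp2c37, Cyp2c50 and Cyp2c54) and 1 higher (Cyp3a11), against 6.59% and 26.6% of all genes. The periportal Cyp2f2 was lower as well (−0.72 ± 0.18). Cyp2c54 had 113 to 211 RPKM in C0 and 21.9, 37 and 50.6 in X72 (−2.33 ± 0.33, adjusted p = 2.8e-08). The lists of both zones thus held members that fell. Cyp4f16 again rose most in its subfamily, from 0.24 to 0.479 RPKM in C0 to 3.08, 2.43 and 2.16 in X72 (2.17 ± 0.17, adjusted p = 1.96e-17), and Cyp4a31 was at 13.4, 11.5 and 28.9 RPKM in X72 against 3.3 to 8.35 in C0 (1.67 ± 0.39). The other PPAR-alpha-linked member, Cyp4a32, was not called in X72. Cyp3a59 was at 6.36 to 19.8 RPKM in C0 and above that in X72 (1.49 ± 0.28) and X1W (1.39 ± 0.28).

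Unoperated C4 livers allow a comparison at ZT6, but the methods of the study place them in another experimental period than S4 and X28, so period and group cannot be told apart. Between S4 and C4, 25 members were called, 4 higher and 21 lower, against 43.3% of all genes (12.2% higher and 31% lower), and after scaling 9 were higher and 15 lower. Cyp2b10 was at 1.63, 0.255 and 0.305 RPKM in C4 and at 26.8, 9.58, 8.98, 15.4 and 22.2 in S4 (4.25 ± 0.65, adjusted p = 1.02e-07). It was also at 20.4, 43 and 13.2 in X4, and between X4 and S4 it was not called. Cyp2d37-ps (−2.69 ± 0.33), Cyp2u1, a fatty acid hydroxylase (−2.68 ± 0.33), and Cyp3a25 (−1.98 ± 0.24) fell, the last from 291 to 419 RPKM in C4 to 79.7 to 92.9 in S4. Between X28 and C4, 26 members were called, 6 higher and 20 lower, against 32.7% of all genes (14.4% and 18.3%). Cyp2a4 (−3.36 ± 0.53), Cyp2j9 (−3.11 ± 0.37) and Cyp2a5 (−2.86 ± 0.53) fell most, and Cyp4a31 (2.10 ± 0.48) and Cyp2c39 (2.09 ± 0.33) rose most.

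After 4 weeks no member was called between X4W and C4W by limma, none had an unadjusted p below 0.05, and 0.065% of all genes were called (0.0325% higher and 0.0325% lower), with 2 livers in each group. Across all 12 comparisons 6 members (10.5%, against 25.7% of all genes) were never called, namely Cyp1a1, Cyp1b1, Cyp2c29, Cyp2j5, Cyp4f14 and Cyp4f39. Comparisons of PH with sham called 27 members in at least 1 of 5 hours (47.4%, against 38.1% of all genes).

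Genes that supply P450 enzymes with electrons and heme changed in part. Of 14 such genes, 2 were higher at X48 against S48 (Alad 0.71 ± 0.16 and Cpox 0.70 ± 0.16, enzymes of heme synthesis) and none lower, where 24.5% of all genes were higher and 2.69% lower. None was called at 4 or 10 h (8.64% and 7.02% of all genes). At 20 h 1 was higher (Cpox, 0.83 ± 0.15) and 1 lower (4.49% and 2.61% of all genes). In X72 against C0, 6 were higher and none lower (26.6% and 6.59% of all genes). They were led by Alas1, the first enzyme of heme synthesis (2.26 ± 0.47), and Por (1.16 ± 0.23). Both were also higher in S48 (1.47 ± 0.47 and 1.09 ± 0.23). Against C4, S4 gave 4 higher and 8 lower (12.2% and 31% of all genes), and X28 gave 4 higher and 3 lower (14.4% and 18.3%). Of 19 tested regulators, Cebpa, a factor of hepatocyte genes, was lower after PH than sham at 4 h (−1.18 ± 0.19), 10 h (−0.96 ± 0.18), 20 h (−0.97 ± 0.18) and 48 h (−0.86 ± 0.19). The D-box factor Dbp was lower at 4 h (−1.14 ± 0.34) and 10 h (−1.41 ± 0.33), and Tef at 4 h (−1.90 ± 0.25), 10 h (−0.69 ± 0.24) and 20 h (−0.86 ± 0.24), while Hlf was not called at any hour. Called higher after PH were Nr1i2 (PXR) at 4 h (0.77 ± 0.21) and 10 h (0.62 ± 0.20), Arnt at 4 h (0.53 ± 0.12), Stat5a at 4 h (0.64 ± 0.22) and 48 h (0.65 ± 0.22), and Ahr at 20 h (1.11 ± 0.25). Ghr was lower at 48 h (−0.88 ± 0.15). In X72 against C0, 6 regulators were higher and 5 lower (26.6% and 6.59% of all genes). Higher were Onecut1 (1.79 ± 0.52), Esr1 (1.72 ± 0.20) and Ahr (1.04 ± 0.24). So were Hnf4a (0.84 ± 0.16), Arnt (0.59 ± 0.11) and Rxra (0.53 ± 0.11). Of the growth hormone pathway, Ghr (−1.01 ± 0.14), Stat5b (−0.66 ± 0.16) and Bcl6 (−1.89 ± 0.54), a repressor of female-predominant genes, were lower, and Bcl6 was lower in S48 too (−1.84 ± 0.54). Nr1i3 (CAR) was lower in X72 (−0.86 ± 0.31), as was Cebpa (−0.65 ± 0.17). Hnf4a was also higher in S48 against C0 (0.96 ± 0.16) and in S4 (1.21 ± 0.18) and X28 (0.74 ± 0.20) against C4. Whether these transcripts bear on the P450 genes was not tested.

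Markers of other cells moved in some of the comparisons. Of 7 stellate cell markers, 4 were higher and none lower in X48 against S48 (summed level 59.9 to 104 RPKM against 47.7 to 51.8), all 7 were lower in S4 against C4, and 2 were higher in X72 against C0. Of the same 7, 1 was higher in X10 against S10, 3 in X20 against S20 (57.5 to 78.1 against 32.9 to 56.2 RPKM) and 1 in X1W against C0, while 3 were lower in S48 against C0 and 4 in X28 against C4. Hepatocyte markers gave 3 lower and none higher of 8 in X48 against S48 (40401 to 45176 against 46248 to 55806 RPKM), and 2 higher and 4 lower in X72 against C0. All 4 B cell markers were lower in S4 and X28 against C4, and 3 of 5 tested neutrophil markers were higher in S4 against C4 and in X72 against C0. Of 6 tested macrophage markers 2 were higher in S48 and in X1W against C0, 1 in X72 against C0 and in X28 against C4, and 3 were lower in S4 against C4. Among the C0 livers their sum ran from 6.95 to 103 RPKM (median 16.8) and that of neutrophil markers from 0.407 to 47 RPKM (median 1.08). No macrophage marker was called in X48 against S48, nor was any of 6 endothelial or 4 tested cholangiocyte markers. Erythroid markers gave 1 lower of 4 there and 3 higher in X1W against C0. The single testable T cell, adipocyte and skeletal muscle markers were not called in X48 against S48, and 1 of 2 tested intestine markers was higher. The part of these cells in the P450 values was not tested.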

How the data were processed

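RNA-Seq of poly(A)-selected, strand-specific libraries was analysed for 80 livers in 19 groups, out of 87 labelled samples. Of 84 columns of values, 4 matched no labelled sample and were not used, and 7 samples (3 of X4, 3 of X60 and 1 of X4W) were not analysed here. The authors mapped reads with TopHat2 2.0.13 and Bowtie2 to mm9, counted them per gene with featureCounts, splitting reads with several positions, and deposited log2 RPKM values of 37991 genes. A change in a few abundant transcripts therefore shifts all others.

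Genes above −1.5 in at least 1 library entered a linear model of log2(RPKM + 0.25) fitted by limma (version 3.58.1, under R 4.3.3), with 1 coefficient per group, all groups sharing the estimate of the spread, and a variance trend. The authors tested read counts, which were not used here. Benjamini-Hochberg adjustment ran over all genes tested. Python 3.11.15 and matplotlib 3.10.9 were used for summaries and figures, and Biopython 1.88 to align promoters. The fit was tested on simulated data. Depth was estimated from the most frequent low value (RPKM times exon length) in each library, taken as 1 read, and counting limits are largest for genes near the threshold. Replicates are separate mice; over 160 pairs within groups the highest correlation was 0.995 and none was a copy.

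Members and lists (sex-predominant, receptor target, zonal, electron and heme, regulator and cell type genes) were chosen with earlier results of these data known. Values per library are given for the called members with the largest change in X48 against S48 (mean log2 RPKM above 0, up to 3 per direction and subfamily group), and for up to 2 per direction at the other hours. Values of the listed members, and of others used to place a result, follow the lists or were chosen after seeing them. Alternatives were pseudocounts of 0.05 and 1, no filter, a filter on group means above 0, median scaling, each comparison alone, a replicate block, subsets of replicates and leaving out each library.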

Additional observations from a re-analysis of the deposited data

Results flagged for a closer look

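Within groups of 4 to 10 livers, 176 sets of values of the members described library by library were examined for a liver far from the others, and 11 were found, where chance gives about 1 in 20. X36 replicate 2 stood high for Cyp2a4 (49.6 RPKM, the next at 8.10) and Cyp2a5 (382, the next at 131). X48 replicate 1 stood low for Cyp2d9 (111, the next at 216) and Cyp2d12 (2.36, the next at 4.46) and high for Cyp2c39 (5.14, the next at 3.14), and X48 replicate 2 was low for Cyp2a22 (3.36, the next at 6.07). The others were Cyp2j9 in X36 replicate 5 (2.74), Cyp2c55 in S1 replicate 3 (2.17), Cyp4f17 in S1 replicate 1 (2.63), Cyp2r1 in X1 replicate 4 (5.04) and Cyp4f16 in S4 replicate 4 (0.243), all in RPKM.

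The difference between PH and sham differed between 20 and 48 h, by the test of that difference in limma, for Cyp2a5 (2.16 on the log2 scale), Cyp2a4 (1.89), Cyp2r1 (0.97), Cyp4f16 (0.74) and Cyp4f15 (−0.82). After scaling to the same median, Cyp2r1 and Cyp4f15 kept the call.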

How the results depend on the processing

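Of 26 changes given library by library, none changed sign under any alternative and 9 kept their call under all of them. Calls were lost by 8 after median scaling, 6 without a filter, 4 with the groups of the comparison alone, and 1 each under either pseudocount and the replicate block. Counts of called members moved by over 1.5 times as follows. With the groups of the comparison alone, 2 members were called at 4 h, 3 at 10 h, 2 at 20 h and 3 for the change from 20 to 48 h. That change gave 3 without a filter and 9 after median scaling. X10 replicates 4 to 6 alone gave 3, X20 replicates 4 to 6 alone gave 14 and replicates 4 to 6 of X1 and S1 gave 1. Replicate numbers did not pair the livers (correlations of −0.186 to 0.273), and the replicate block gave 8 at 10 h and moved no other count by over 1.5 times. Leaving out 1 library at a time gave 0 at 1 h and 4 weeks, 1 to 4 at 4 h, 2 to 7 at 10 h, 4 to 9 at 20 h, 16 to 28 at 48 h, 2 to 5 for the change from 20 to 48 h, 21 to 26 for S4 and 22 to 27 for X28 against C4, and 7 to 19 for S48, 31 to 35 for X72 and 9 to 16 for X1W against C0. The causes were not tested. Levels near or below the threshold rest on few reads.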
